A study of Mus musculus with 9 samples.

Results

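The 6 genes described here encode products of the proximal tubule, the first segment of the nephron. They are the carriers Slc34a3, Slc5a12 and Slc13a1, the peptidases Napsa and Dpep1, and the injury marker Havcr1. Their rows were taken by symbol from a table of 14052 genes, in which all 6 were found. RNA was sequenced from 9 areas of mouse kidney cortex, at an age of about 1 year. Tumour tissue gave 5 areas (R2 to R5 and L4); its genotype is Vhl F/F;Pbrm1 F/F with Ksp-Cre, meaning floxed alleles of both genes and a Cre transgene, on a mixed background of C57BL/6, BALB/c and 129. Normal tissue gave 4 areas (L1 and L2, R1 and R2) of wild-type C57BL/6 kidney. Ksp is the promoter of Cdh16, which is active in tubule epithelium and best known from the loop of Henle, the distal tubule and the collecting duct. Descriptions of all tumour areas carry 1 number and those of all normal areas another, so each group may be 1 animal. The p-values then measure the spread between areas, and genotype, strain and animal cannot be told apart.

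The proximal tubule takes back most of the filtered glucose, phosphate, sulphate, lactate, amino acids and small proteins. Sodium-coupled carriers in its brush border bring solutes into the cell, peptidases on the same membrane cut filtered peptides, and lysosomal proteases break down what is taken up by endocytosis. Injured tubule cells lose many of these functions and place Havcr1, also called kidney injury molecule 1, on their surface. Clear cell kidney cancer in humans is commonly held to arise from proximal tubule epithelium.

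Counted reads per library ranged from 5143527 to 8250261, and values below are CPM, the share of a library's counts brought to a common depth, with trimmed mean (TMM) scaling, which adjusts for differences in library composition. Across the 9 libraries, 3989 genes (28.4%) had no count at all, so a gene at 0 was not shown to be silent. Whether genes with low counts also lack reads was not tested, so any order of different genes is that of counted reads. A count of 0 in 1 library allows up to 0.409 to 0.649 CPM, a limit for counting error only. Vhl, 1 of the targeted genes, stood at 45.1 to 75.7 CPM in tumour areas and at 97.7 to 108 CPM in normal areas. Pbrm1 stood at 106 to 162 CPM in tumour areas and at 141 to 164 CPM in normal areas, so the groups overlapped. Counts over a whole gene can include exons outside the deleted part.

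The 6 genes did not move together. Slc34a3, Slc5a12 and Dpep1 fell in the tumour areas, while Slc13a1, Napsa and Havcr1 rose. All 6 passed edgeR's quasi-likelihood test at an adjusted p under 0.05, as did 74.6% of the 7020 genes tested, 39.3% higher and 35.3% lower in tumour. In all 6 the groups did not overlap, as in 67.8% of genes tested, with the tumour areas above in 34.8% and below in 33%. A call alone was therefore common in this comparison.

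**Figure D1:**
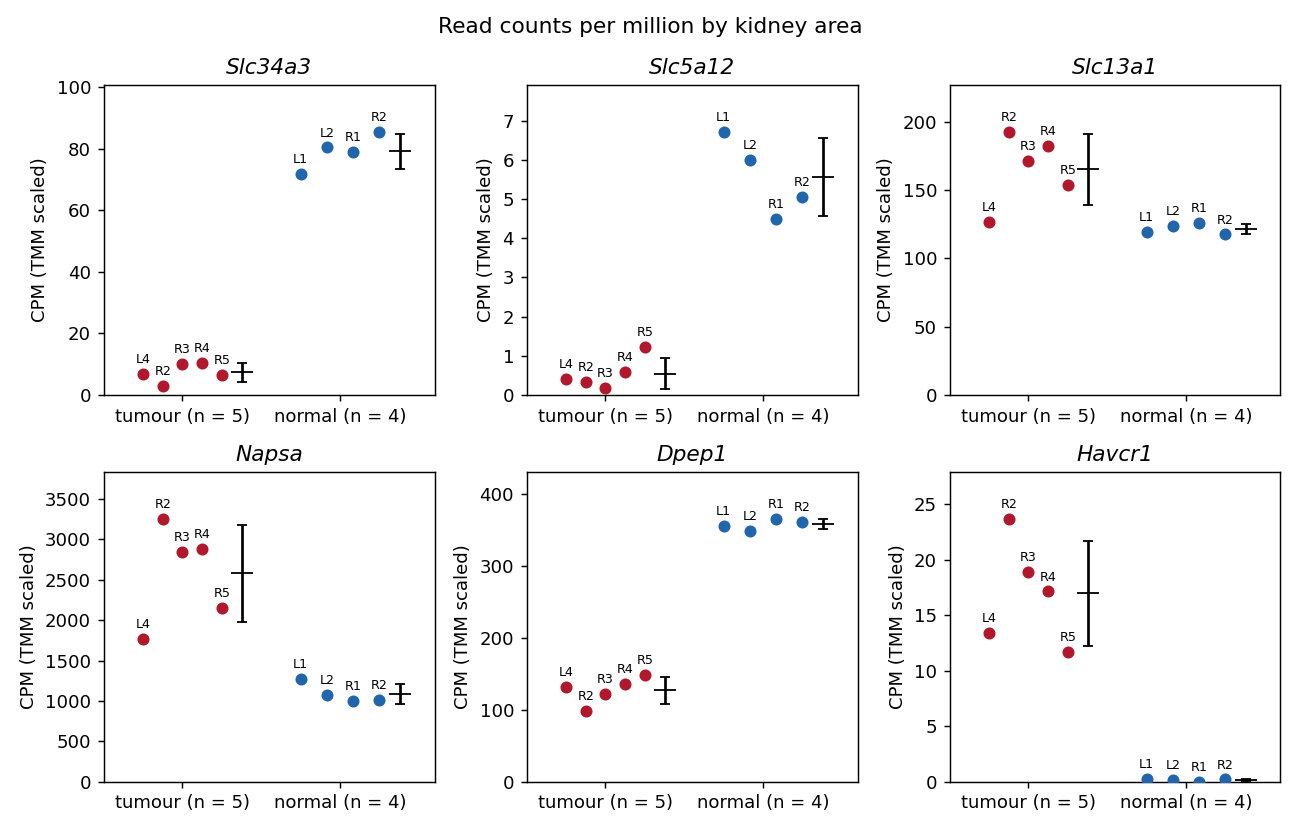
CPM of the 6 genes (vertical axes, linear from 0) in each tumour and normal area, named beside its point, with the mean and SD of the group as a black bar. Slc34a3, Slc5a12 and Dpep1 lie lower in all 5 tumour areas than in the 4 normal areas, and Slc13a1, Napsa and Havcr1 lie higher.

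Slc34a3 (ENSMUSG00000006469) encodes the sodium-phosphate carrier NaPi-IIc of the brush border, whose loss in humans causes a hereditary form of rickets with phosphate wasting. It stood at 6.82 (L4), 2.85 (R2), 9.99 (R3), 10.3 (R4) and 6.54 (R5) CPM in tumour areas, against 71.8 (L1), 80.5 (L2), 79.1 (R1) and 85.4 (R2) CPM in normal areas. Even the highest tumour area held well under the lowest normal area, and tumour R2 was the lowest of all. The means were 7.30 ± 3.04 CPM in tumour areas and 79.2 ± 5.62 CPM in normal areas (SD, n = 5 and 4). That is 10.8-fold lower in tumour (log2 fold change -3.43 ± 0.25, standard error of the fit, adjusted p = 9.42e-07 in edgeR). Of 7020 genes only 27 had a lower fold change, Slc34a3 being at rank 28. In bulk tissue, fewer cells of a type and less RNA per cell cannot be told apart.

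Slc5a12 (ENSMUSG00000041644) encodes SMCT2, a low-affinity sodium-coupled carrier of lactate and other monocarboxylates in the early proximal tubule. It had the fewest counts of the 3 carriers, with 3 (L4), 2 (R2), 1 (R3), 4 (R4) and 8 (R5) counts in tumour areas and 31 (L1), 44 (L2), 27 (R1) and 25 (R2) counts in normal areas. In CPM this was 0.418, 0.336, 0.182, 0.581 and 1.22 in the tumour areas L4 to R5, and 6.71, 6.00, 4.48 and 5.06 in the normal areas L1 to R2. Tumour R5 was the highest of its group and still lay below every normal area. The pooled counts of 18 in tumour and 127 in normal gave a rate 9.89-fold lower in tumour (95% exact interval for counting error 6.01 to 17.2), and the fitted log2 fold change was -3.27 ± 0.35 (adjusted p = 1.15e-05 in edgeR). Without tumour areas L4 and R5 the log2 fold change was -3.78.

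Slc13a1 (ENSMUSG00000029700) encodes NaS1, the sodium-sulphate carrier that keeps sulphate in the blood. It stood at 127 (L4), 192 (R2), 172 (R3), 182 (R4) and 154 (R5) CPM in tumour areas, against 119.6 (L1), 124 (L2), 126 (R1) and 118 (R2) CPM in normal areas. Tumour L4 lay just above the highest normal area, and the other 4 tumour areas lay clearly above. The means were 165 ± 25.9 CPM in tumour areas and 122 ± 3.76 CPM in normal areas, a 1.36-fold rise (log2 fold change 0.44 ± 0.11, adjusted p = 0.00366 in edgeR). The rise was 0.59 on the log2 scale without tumour areas L4 and R5.

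Napsa (ENSMUSG00000002204) encodes napsin A, an aspartic protease of the proximal tubule and of type 2 cells of the lung, where it helps to process surfactant protein B. Of the 6 genes it was the most abundant, with 1772 (L4), 3253 (R2), 2844 (R3), 2887 (R4) and 2153 (R5) CPM in tumour areas and 1271 (L1), 1073 (L2), 1003 (R1) and 1014 (R2) CPM in normal areas. By mean CPM, not adjusted for length, it ranked 20 among the tested genes in tumour areas and 162 in normal areas. The means were 2582 ± 603 CPM in tumour areas and 1090 ± 125 CPM in normal areas, a 2.37-fold rise (log2 fold change 1.24 ± 0.17, adjusted p = 8.32e-05 in edgeR). In the annotation 15.12% of the 50-base stretches of Napsa transcripts also occur in Gm15396, a gene on the opposite strand which has no row here. The library kit is not stated to mark strand, so reads of these overlapping genes cannot be told apart.

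Dpep1 (ENSMUSG00000019278) encodes a zinc dipeptidase anchored in the brush border that splits cysteinylglycine from glutathione breakdown and turns leukotriene D4 into E4. It stood at 132 (L4), 98.8 (R2), 122 (R3), 136 (R4) and 149 (R5) CPM in tumour areas, against 357 (L1), 349.7 (L2), 366 (R1) and 362 (R2) CPM in normal areas. The normal areas lay close together and the tumour areas far below them, with R2 the lowest. The means were 128 ± 18.8 CPM in tumour areas and 359 ± 7.08 CPM in normal areas, which is 2.81-fold lower in tumour (log2 fold change -1.49 ± 0.10, adjusted p = 5.26e-07 in edgeR).

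Havcr1 (ENSMUSG00000040405) encodes a surface glycoprotein that binds phosphatidylserine and lets tubule cells take up dying neighbours. It is hardly made in healthy tubule, is shed into urine after injury, and is also known as TIM-1 on B and T cells. The libraries held 96 (L4), 141 (R2), 104 (R3), 118 (R4) and 77 (R5) counts of it in tumour areas, against 1 (L1), 1 (L2), 0 (R1) and 1 (R2) counts in normal areas. In CPM this was 13.4, 23.7, 18.9, 17.1 and 11.7 in the tumour areas L4 to R5, and at most 0.216 in a normal area. The pooled rate was 128-fold higher in tumour, from 536 counts against 3 (95% exact interval for counting error 43.4 to 620.2). The fitted log2 fold change was 6.80 ± 0.43 (adjusted p = 3.89e-07 in edgeR), at rank 22 from the highest. Of the 50-base stretches of Havcr1 transcripts, 4.6% occur in another gene, chiefly Timd2. Timd2 itself stood at 10.2 to 15.8 CPM in tumour areas and 13.4 to 16.8 CPM in normal areas, and its groups overlapped.

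Per kilobase of the longest annotated coding transcript, the order of the genes differed between the groups. In tumour areas Napsa stood first at 1655 ± 386 CPM per kilobase, followed by Slc13a1 at 66.3 ± 10.4, Dpep1 at 57.0 ± 8.39, Havcr1 at 8.35 ± 2.32, Slc34a3 at 3.35 ± 1.39 and Slc5a12 at 0.155 ± 0.114. Slc13a1 and Dpep1, neighbours in that order, differed by less than the sum of their SDs. In normal areas Napsa was also first at 699 ± 79.8 CPM per kilobase, followed by Dpep1 at 160.4 ± 3.17, Slc13a1 at 48.8 ± 1.51, Slc34a3 at 36.3 ± 2.57, Slc5a12 at 1.58 ± 0.279 and Havcr1 at 0.0684 ± 0.0487. Havcr1 thus stood last in normal cortex and above Slc34a3 and Slc5a12 in the tumour areas. The isoforms actually counted were not measured, so lengths are those of the annotation and the order is that of counted reads.

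The spread within the tumour areas was wider than within normal areas for 5 of the 6 genes. The coefficient of variation was 0.416 in tumour and 0.0709 in normal for Slc34a3, 0.735 and 0.177 for Slc5a12, and 0.157 and 0.0309 for Slc13a1. It was 0.233 in tumour and 0.114 in normal for Napsa, and 0.147 and 0.0198 for Dpep1. Havcr1 had 0.278 in tumour and 0.712 in normal, where it rested on 3 counts. The median over all tested genes was 0.145 in tumour and 0.0669 in normal areas.

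Within the tumour group, area R2 stood at one end for 5 of the 6 genes. It was the highest for Slc13a1, Napsa and Havcr1 and the lowest for Slc34a3 and Dpep1. Areas L4 and R5 were the 2 lowest for Slc13a1, Napsa and Havcr1. Relative to the normal mean on the log2 CPM scale (prior count 2), Napsa was 0.71 higher in L4 and 1.58 higher in R2. Slc34a3 was at -4.64 in R2 and between -3.53 and -2.90 in the other tumour areas.

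**Figure D2:**
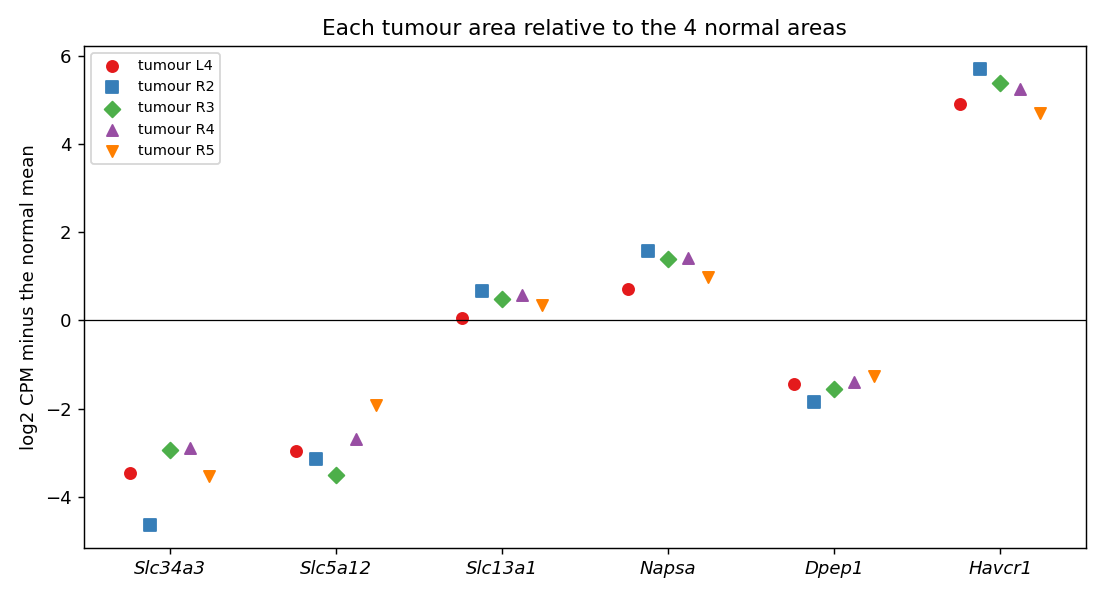
Log2 CPM of each gene in each tumour area minus the mean of the 4 normal areas (vertical axis, log2 units), with 1 symbol per area. Area R2 lies highest for Slc13a1, Napsa and Havcr1 and lowest for Slc34a3 and Dpep1, and the line at 0 is the normal mean.

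These positions can be put beside the cell type markers of the areas. The proximal tubule markers fell in 10 of 11 tested genes, and the other, Fbp1, stood at 45.2 against 54.1 CPM without passing (adjusted p = 0.231 in edgeR). Their summed level was 14807 to 28450 CPM in tumour areas and 53901 to 57175 CPM in normal areas, so the labelled tissue held proximal tubule transcripts in every area. Among these markers Slc6a19 and Keg1 had no count in any library. The proximal tubule sum was lowest in tumour L4 (14807 CPM), then R2 (17910 CPM). Of the distal tubule and collecting duct markers 7 of 7 tested fell, with a sum of 284 to 1686 CPM in tumour areas and 4778 to 5546 CPM in normal areas, and here R2 was the lowest. Thick ascending limb markers summed to 1255 to 5419 CPM in tumour areas and 5314 to 6299 CPM in normal areas, with Slc12a1 lower and Umod not called.

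Immune markers moved the other way. The 5 tested B and plasma cell markers all rose, with a sum over 6 genes of 323 to 880 CPM in tumour areas and 3.04 to 6.06 CPM in normal areas. All 7 tested T and NK cell markers rose (sum 156 to 383 CPM in tumour areas and 8.64 to 13.9 CPM in normal areas), as did 5 of 6 macrophage markers (sum 804 to 1978 CPM in tumour areas and 87.0 to 112 CPM in normal areas). Each of these sums was lowest in tumour R3 or R4 and highest in L4, while Havcr1 was highest in R2. The part of immune cells in the level of Havcr1 was not tested.

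Areas L4 and R5 also stood highest in the marker lists of urothelium and of fat. Urothelial and basal epithelial markers summed to 1068 CPM in L4, 188 CPM in R5 and between 12.3 and 52.4 CPM in R2, R3 and R4, against 0.332 to 3.68 CPM in normal areas. All 4 tested genes of that list rose, and Krt14 had no count. Fat markers, of which only Plin1 was tested and did not pass (adjusted p = 0.0648 in edgeR), summed to 144 CPM in L4, 31.96 CPM in R5 and between 0.336 and 3.78 CPM in R2, R3 and R4, against 1.62 to 6.55 CPM in normal areas. Over all libraries Plin1 held 1329 counts, Fabp4 57 and Retn 7, so the fat sum rested mostly on Plin1. Whether Plin1 came from fat cells was not tested. The 6 genes kept their direction and call without L4 and R5.

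**Figure D3:**
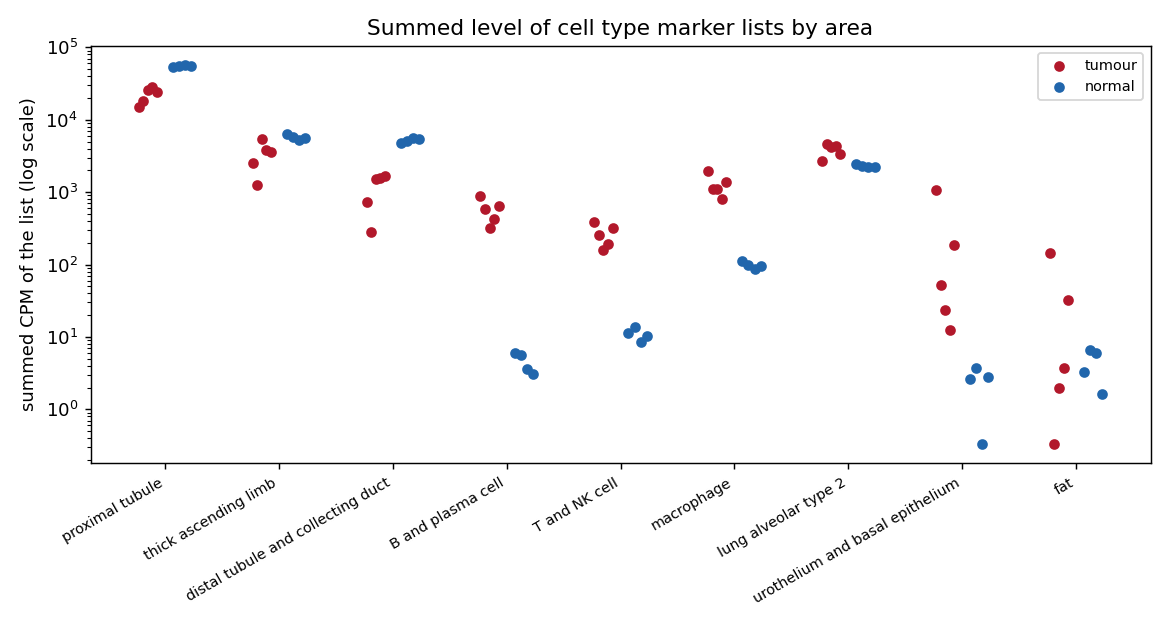
Summed CPM of each marker list (vertical axis, log scale) in the 5 tumour areas, left, and the 4 normal areas, right, of each pair. Tubule lists lie lower in tumour areas apart from overlapping thick ascending limb values, immune lists lie higher, and the alveolar type 2 list contains Napsa itself.

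Since proximal tubule transcripts were lower as a whole, the 6 genes were also compared after each library was scaled to other proximal tubule transcripts instead of TMM. The scale was the summed counts of 9 endocytosis genes, which include the receptors Lrp2 and Cubn. Most of the sum was Lrp2, with 2079 of 3210 CPM in tumour L4 and 7624 of 10928 CPM in normal L1. The scale therefore rested largely on that gene. On this scale 83.1% of tested genes were called, 78.2% higher and 4.83% lower in tumour. Slc34a3 (-2.30 ± 0.30, adjusted p = 1.85e-05 in edgeR) and Slc5a12 (-2.15 ± 0.44, adjusted p = 0.00049) remained lower. Napsa stood at 2.36 ± 0.15 (adjusted p = 8.53e-08), Slc13a1 at 1.58 ± 0.18 (adjusted p = 5.27e-06) and Havcr1 at 7.85 ± 0.47 (adjusted p = 6.99e-08). Dpep1 stood at -0.29 ± 0.23 and did not pass (adjusted p = 0.249). It passed without tumour L4 (-0.51, adjusted p = 0.00402), the area with the lowest endocytosis sum, and without L4 and R5 (-0.71, adjusted p = 1.94e-06). Scaled to the other proximal tubule carriers, 84.8% of tested genes were called, 79.5% higher and 5.3% lower. On that scale the log2 fold changes were -2.35 for Slc34a3, -2.17 for Slc5a12, 1.598 for Slc13a1, 2.40 for Napsa, -0.33 for Dpep1 and 7.89 for Havcr1.

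**Figure D4:**
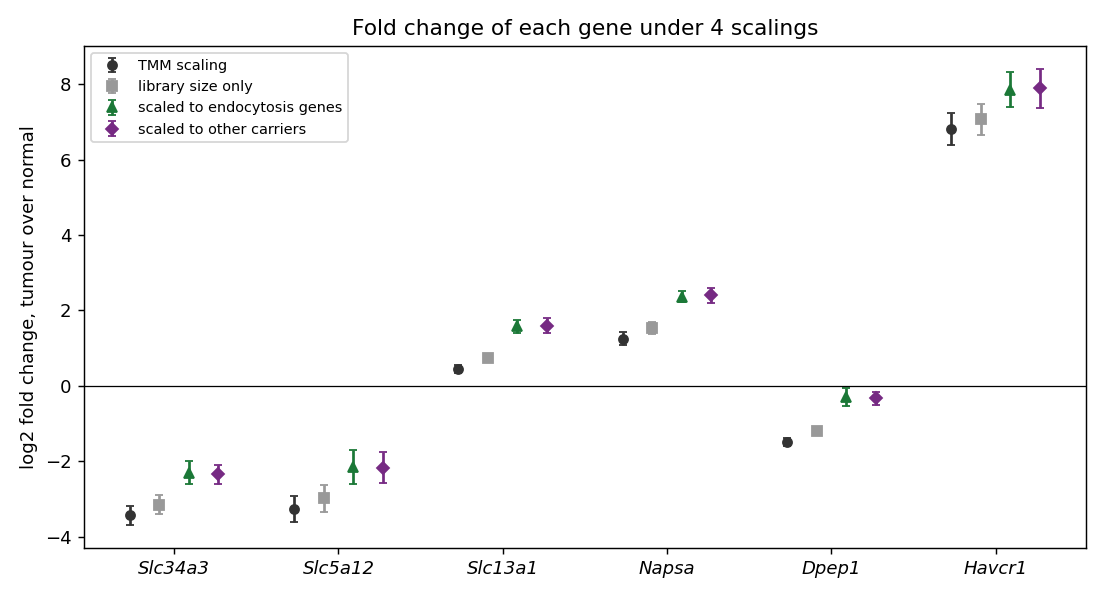
Log2 fold change of tumour over normal areas (vertical axis) for the 6 genes, with standard errors, under TMM, library size alone, and scaling to 2 sets of other proximal tubule genes. Slc34a3 and Slc5a12 lie below 0 and Slc13a1, Napsa and Havcr1 above 0 under all 4, and Dpep1 lies near 0 (-0.29 and -0.33) when scaled to proximal tubule genes.

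Ratios of reads within a library do not depend on scaling. For each 1000 reads of Slc34a1, the main phosphate carrier NaPi-IIa, there were 0.820 to 2.15 reads of Slc34a3 in tumour areas and 5.27 to 5.73 in normal areas. For each 1000 reads of Slc5a8, the high-affinity monocarboxylate carrier SMCT1, there were 0.282 to 2.78 reads of Slc5a12 in tumour areas and 2.98 to 4.07 in normal areas. For each read of Dpep1 there were 13.5 to 32.9 reads of Napsa in tumour areas and 2.74 to 3.56 in normal areas. The groups did not overlap in these ratios. For Napsa and Dpep1 this had to be so, since each was already without overlap, in opposite directions. For Slc5a12 the groups came close, at 2.78 in tumour R5, from 8 reads, and 2.98 in normal R1, from 27 reads. How often ratios of other gene pairs separate was not computed.

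Genes that share a pathway with the 6 were counted by list. Their shares stand against the 39.3% of all tested genes that rose and the 35.3% that fell. The 6 genes are counted in their own lists. These are phosphate for Slc34a3, lactate for Slc5a12, sulphate for Slc13a1, and both peptidases and leukotriene breakdown for Dpep1. Napsa is in the cathepsin list and Havcr1 in the TIM and injury lists. Of 14 tested phosphate handling genes, 9 fell and 1 rose, and the list's median log2 fold change was -0.46, beside 0.06 over all tested genes. Slc34a1 stood at 4447 ± 1083 CPM in tumour areas and 14484 ± 645 CPM in normal areas, which is 3.26-fold lower (-1.70 ± 0.17, adjusted p = 9.22e-06 in edgeR). Kl, the klotho co-receptor of the phosphate hormone FGF23, fell by 1.84 on the log2 scale, and Cyp24a1, which breaks down active vitamin D, rose (0.98 ± 0.17). The housekeeping phosphate carriers Slc20a1 and Slc20a2 did not pass, at 4.73 and 175 CPM in tumour areas against 4.31 and 163 CPM in normal areas. With library size alone, which moved the median of all tested genes by 0.29, 6 phosphate genes fell and 3 rose, and 3 rose without tumour L4 as well.

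Among 8 tested genes of lactate and monocarboxylate handling, 4 fell and 3 rose (median -0.46), numbers too small to set the list apart from all tested genes. Besides Slc5a12, Slc16a7, the carrier MCT2, fell (10.7 ± 5.69 CPM in tumour areas against 121 ± 12.8 CPM in normal areas), as did Slc5a8 (549.96 ± 153 against 1563 ± 73.6 CPM). Slc16a3, the carrier MCT4 that exports lactate, rose to 9.05 ± 2.89 CPM in tumour areas, against 0.0847 ± 0.101 CPM in normal areas. Ldha, a lactate dehydrogenase subunit, rose (1.09 ± 0.11), and so did Bsg, which brings monocarboxylate carriers to the membrane (1.74 ± 0.48, from 75 counts in all, and not called among R areas alone).

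Sulphate and anion handling was mixed: of 9 tested genes 5 fell and 3 rose (median -0.47). Slc13a2, a citrate and dicarboxylate carrier and relative of Slc13a1, rose (91.9 CPM in tumour areas and 66.9 CPM in normal areas, 0.46 ± 0.13), and the anion exchanger Slc26a6 rose (1.11 ± 0.27). The related carriers Slc13a3 (-1.63 ± 0.28) and Slc13a5 (-1.598 ± 0.33) fell, as did the anion exchanger Slc26a7 (-0.97 ± 0.22). For each read of Slc13a3 there were 38.9 to 191 reads of Slc13a1 in tumour areas and 12.4 to 15.5 in normal areas.

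Other proximal tubule carriers fell in 15 of 17 tested genes and rose in 1 (median -0.99). The glucose carrier Slc2a2 (-3.28 ± 0.38), the sodium-proton exchanger Slc9a3 (-2.85 ± 0.19) and the glucose carrier Slc5a2 (-2.43 ± 0.20) had the largest decreases. Slc15a2, a peptide carrier, rose by 0.33 on the log2 scale and was not called with normal R1 or R2 left out, or with a term for the area letter. Slc6a18, an amino acid carrier, stood at 211 CPM in tumour areas and 210.3 CPM in normal areas (adjusted p = 0.993 in edgeR). The endocytosis list fell in 7 of 9 genes and rose in 1 (median -0.86), with Clcn5 (-1.93 ± 0.14), Cltc (-1.45 ± 0.11) and Lrp2 (-1.12 ± 0.20) lowest, and Amn, the partner of cubilin, higher (0.55 ± 0.15).

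Of 14 tested brush border and extracellular peptidases, 6 rose and 6 fell, shares near those of all tested genes, and with library size alone 8 rose and 3 fell (median 0.11 under TMM). Dpep1 had the largest decrease, and the carnosinases Cndp1 (-1.26 ± 0.19) and Cndp2 (-0.74 ± 0.12) fell too. The angiotensin-converting enzyme Ace (0.94 ± 0.13) and the dipeptidyl peptidase Dpp4 (0.70 ± 0.14) rose. Of the genes of leukotriene and glutathione breakdown, 5 of 6 fell and 1 rose (median -0.63), among them Gclc, the catalytic subunit of glutathione synthesis (-0.85 ± 0.15), and Oplah (-0.76 ± 0.12). Only 3 of them fell without normal R1 or with library size alone. Lta4h, which makes leukotriene B4, rose (0.53 ± 0.14). Dpep2 and Ggt1 held 5 and 10 counts in all and were not tested, and Dpep3 had no count.

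Of 13 tested aspartic proteases and lysosomal cathepsins, Napsa included, 9 rose and 2 fell (median 0.85). Ctse, an aspartic protease (4.62 ± 2.22 CPM in tumour areas and 0.0921 ± 0.107 CPM in normal areas), and Ctss, a cathepsin of antigen-presenting cells (log2 fold change 3.32 ± 0.26), had the largest increases. Bace2 rose by 1.74 ± 0.58 on the log2 scale, by 0.82 among R areas alone and by 1.37 in limma-voom, where it was not called, and stood at 63.8 CPM in tumour L4 against 10.2 to 21.2 CPM in the other tumour areas. Renin, Ren1, fell (-1.45 ± 0.18), and so did Bace1 (-0.39 ± 0.11), which was not called with library size alone. Of the lung type 2 markers, which include Napsa, Sftpb and Sftpc had no count in any library. Abca3 did not pass (1052 CPM in tumour areas and 1186 CPM in normal areas). Sftpd held 39 counts and Lamp3 28, all of them in tumour areas, and neither was tested. Slc34a2, the phosphate carrier NaPi-IIb of that list, rose to 196 ± 49.9 CPM in tumour areas, against 15.02 ± 3.44 CPM in normal areas (3.71 ± 0.22, adjusted p = 2.98e-07 in edgeR).

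Of 16 tested genes of tubule injury and repair, Havcr1 included, 12 rose and 3 fell (median 1.66). The summed level of the list overlapped between the groups, at 5464 to 6380 CPM in tumour areas and 6009 to 6237 CPM in normal areas. This sum includes Egf, at 811 ± 432 CPM in tumour areas and 2754 ± 85.9 CPM in normal areas. The fall of Egf offset increases in other genes, so the overlap does not speak for the rest of the list. Cd44, a hyaluronan receptor, rose to 171 ± 65.1 CPM in tumour areas, against 7.93 ± 1.599 CPM in normal areas, and Krt20, a keratin, rose by 3.84 ± 0.74 on the log2 scale. Vcam1, an adhesion molecule of unrepaired tubule cells, was chosen after its values were seen and stood at 748 ± 132 CPM in tumour areas and 55.8 ± 4.46 CPM in normal areas (3.75 ± 0.14, adjusted p = 2.41e-08 in edgeR). Fgb (-2.54 ± 0.41) and Egf, a growth factor of the distal nephron (-1.76 ± 0.41), fell, and so did Itgav (-0.37 ± 0.09), which was not called with library size alone. Lcn2 and Sox9 were not analysed here, and Spp1 and Vim had no count in any library. Some of these genes are also known from immune or urothelial cells, whose markers rose in the same areas.

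Of the TIM family and uptake receptors, 5 of 9 tested rose and 1 fell (median 0.24). Timd4, the phosphatidylserine receptor of macrophages, rose (adjusted p = 1.48e-05 in edgeR), with 215 counts over the tumour areas and 3 over the normal areas. The scavenger receptor Msr1 rose (3.63 ± 0.25), Cd36 fell (-0.81 ± 0.25, not called with library size alone), and Timd2 and Mertk did not pass. The number that fell was not stable: it was 2 under 7 of the 21 alternatives, the omission of tumour R3 among them, and 0 with library size alone. Havcr2 held 7 counts and was not tested.

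Of 9 tested genes listed as proximal tubule transcription factors, 6 fell and 1 rose (median -1.39). Whether these genes mark that segment alone was not tested. Esrrg (-3.57 ± 0.26), Ppara (-2.76 ± 0.15) and Hnf4g (-1.98 ± 0.23) had the largest decreases, and Rela, a subunit of NF-kB, rose (0.92 ± 0.06). With tumour L4 or R5 left out, 2 genes of this list rose, and with library size alone 3 rose. Hnf4a was not analysed here, and Stat3 had no count in any library.

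**Figure D5:**
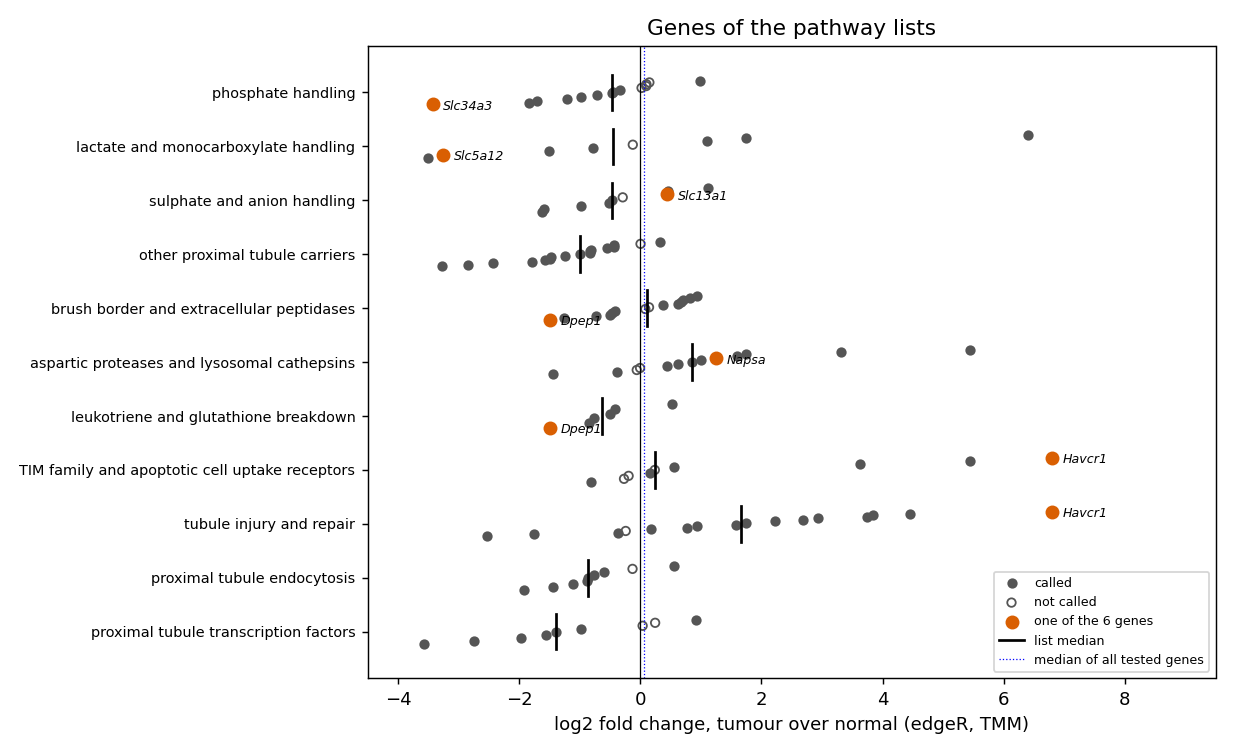
Log2 fold change of tumour over normal areas (horizontal axis) for every tested gene of the 11 pathway lists, with called genes filled, others open, the 6 genes in orange and each list's median as a black bar. The carrier, endocytosis and transcription factor lists have medians below 0, and the injury and cathepsin lists have medians of 1.66 and 0.85.

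The promoters of 3 of the 6 genes were in the RefSeq sequence table (build GRCm38.p6), each with 250 bases before and 50 after the start. The other 3 genes had no entry there, and the direction of change played no part in the choice. The Slc34a3 window is chr2:25234185-25234484 on the minus strand, and the Dpep1 window is chr8:123185985-123186284 on the plus strand. These starts lie 130 and 7 bases from the nearest start of an annotated coding transcript. Havcr1 has 3 starts, of which the one not shown lies 162 bases from such a start and held no match to the motifs. The windows of the other 2, which coincide with one, are chr11:46750261-46750560 and chr11:46750918-46751217, on the plus strand. Capitals mark matches, on either strand, to the motifs searched.
Slc34a3: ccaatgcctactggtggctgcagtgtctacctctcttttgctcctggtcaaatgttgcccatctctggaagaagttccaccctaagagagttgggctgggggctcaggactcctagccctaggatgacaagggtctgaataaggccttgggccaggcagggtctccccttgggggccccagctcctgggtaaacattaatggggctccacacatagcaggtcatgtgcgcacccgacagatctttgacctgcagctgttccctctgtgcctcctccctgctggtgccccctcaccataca
Dpep1: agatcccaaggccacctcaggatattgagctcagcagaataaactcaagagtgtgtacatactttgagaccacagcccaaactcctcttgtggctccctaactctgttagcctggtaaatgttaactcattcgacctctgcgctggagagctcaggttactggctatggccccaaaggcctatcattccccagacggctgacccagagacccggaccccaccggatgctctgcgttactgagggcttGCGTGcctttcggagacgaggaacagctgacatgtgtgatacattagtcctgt
Havcr1 (start at 46750511): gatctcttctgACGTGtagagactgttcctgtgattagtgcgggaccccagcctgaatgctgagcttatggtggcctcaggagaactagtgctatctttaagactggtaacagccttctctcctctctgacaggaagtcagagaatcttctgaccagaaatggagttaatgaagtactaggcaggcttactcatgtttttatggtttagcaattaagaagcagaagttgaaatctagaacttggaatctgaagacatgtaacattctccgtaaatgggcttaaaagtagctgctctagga
Havcr1 (start at 46751168): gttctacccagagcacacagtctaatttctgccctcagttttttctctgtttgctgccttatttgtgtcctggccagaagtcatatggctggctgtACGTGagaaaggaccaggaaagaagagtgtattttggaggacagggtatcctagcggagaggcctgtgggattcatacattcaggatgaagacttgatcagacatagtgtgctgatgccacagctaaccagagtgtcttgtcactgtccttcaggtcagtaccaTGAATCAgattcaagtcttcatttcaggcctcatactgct

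The motifs were HNF4 (CAAAGTCCA), the HIF core as ACGTG or GCGTG, STAT (TTCNNNGAA), AP-1 (TGANTCA) and the TATA box (TATAAA). The Slc34a3 window held no match to these letters. Dpep1 held GCGTG from position -3, counted from the start, a match that 32.4% of 32851 windows of this length hold. Havcr1 held ACGTG from position -239 of the start at 46750511 and from -154 of the start at 46751168, and 19.6% of windows hold it. It also held an AP-1 match from position 11 of the start at 46751168, found in 7.81% of windows. HNF4 was found in 0.475% of windows, STAT in 8.3% and the TATA box in 13.6%, and none of these was in the 4 windows shown. These are matches of letters, not measured binding.

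Genes whose profile was most like each of the 6 were ranked by Pearson's r of log2 CPM deviations from the group means, over the 9 libraries and 5236 genes of at least 10 CPM. These areas share their libraries' depth and composition, and the values are a description. The genes named are the highest of 5236 candidates over only 9 libraries, and that choice alone favours a high r. For Slc34a3 they were Ube4a (r = 0.988), Pgrmc1 (0.979) and Clec2h (0.971), and for Slc5a12 they were Zcchc17 (0.905), Smg1 (0.89) and Slc25a35 (0.885). For Slc13a1 they included Cpn1 (0.990) and Msra (0.980). Like Slc13a1, Msra rose (log2 fold change 0.44 ± 0.13), but Cpn1 fell (-2.41 ± 0.20). Deviations from the group means leave out the difference between groups, so alike genes need not share a direction. For Napsa they were Slc22a13 (0.987), Plau (0.970) and Plpbp (0.969), and Plau, the urokinase, itself rose to 2778 CPM in tumour areas against 665 CPM in normal areas. For Dpep1 they were Degs2 (0.988), Fam149a (0.973) and Ces1d (0.968), and for Havcr1 they were Tmem206 (0.95), A2m (0.943) and Tcaf1 (0.932). Among the 6 genes, the deviations of Slc13a1 and Napsa had r = 0.888, Napsa and Havcr1 0.775, Slc34a3 and Dpep1 0.687, and Dpep1 and Havcr1 -0.750. Slc34a3 and Slc5a12, which both fell, had r = -0.012. The remaining pairs lay between -0.602 (Napsa and Dpep1) and 0.615 (Slc5a12 and Dpep1).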

How the data were processed

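Poly(A) RNA of 9 areas was sequenced, and the authors deposited unnormalised counts per gene. Per the submitters' processing notes, STAR 2.3, HTSeq and edgeR were used with build mm9, with annotation and strand setting not given in the sources used here. Of 14052 identifiers, 14026 matched a symbol. All values were whole, and no 2 columns were identical.

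Genes were kept by filterByExpr (minimum count 10, minimum total 15), which left 7020. Tumour and normal areas were compared by the quasi-likelihood test of edgeR 4.0.16 (R 4.3.3), with TMM scaling, group as the only term and Benjamini-Hochberg adjustment over all tested genes. A standard error is the log2 fold change over the square root of F. Tried in place of these were 3 other scalings (RLE, upper quartile, library size), 2 other filters, DESeq2 1.42.0, limma-voom 3.58.1, the exact and robust tests of edgeR, a term for L or R in the area name, R areas alone, omission of L4 with R5, and omission of each area. The steps were also run on simulated data in which few genes were changed, as many up as down. Such data do not test the scaling where most genes are called.

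The members and gene lists were chosen with earlier results of these data known, and no set test was made. Named genes are the 6 members, up to 3 called genes per list and direction with at least 1 CPM in the higher group, the 3 most alike genes per member, and others where a sentence needs them; 3 such genes are not reported here. Lengths, overlaps and shared 50-base stretches come from GENCODE M21 transcripts, which serve a later build, so no coordinates of the counted genes are given.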

Additional observations from a re-analysis of the deposited data

Results flagged for a closer look

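In 52 genes and both groups, 104 groups of areas were examined, and in 4 of them a single area stood far from the others. Chance gives this in about 1 in 20 groups, so 4 is no more than chance gives. Bace2 stood at 63.8 CPM in tumour L4, against 10.2 to 21.2 CPM in the other tumour areas. Krt20 stood at 32.99 CPM in tumour L4, against 4.65 to 10.2 CPM in the other tumour areas. Urothelial markers were also highest in L4, and their part in these values was not tested. Cd36 stood at 31.99 CPM in normal R2, against 22.9 to 23.4 CPM in the other normal areas. Egf stood at 2882 CPM in normal L1, against 2703 to 2725 CPM in the other normal areas. None of the 6 genes themselves had such an area in either group.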

How the results depend on the processing

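All 6 genes kept their direction and call under all 21 alternatives, with log2 fold changes of -3.60 to -3.15 for Slc34a3, -3.78 to -2.95 for Slc5a12, 0.37 to 0.73 for Slc13a1, 1.15 to 1.53 for Napsa, -1.58 to -1.20 for Dpep1 and 6.33 to 7.31 for Havcr1. Over all genes, 2760 were higher and 2476 lower, and the counts ranged from 2425 to 3735 and from 1689 to 2623. Higher genes made up 52.7% of calls, and 68.9% with library size alone. Relative to the endocytosis genes, 5 of the 6 kept their call under all 14 alternatives. Dpep1 (-0.29) passed without tumour L4 and R5 (-0.71), and with 1 area left out ranged from -0.51 without tumour L4 to -0.19 without tumour R2. L4 had the lowest endocytosis sum, 3210 CPM where R2 to R5 had between 4792 and 6738 CPM, and the cause of the change was not tested. Few reads limit Slc5a12 in tumour and Havcr1 in normal areas.

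No paired analysis was possible because the groups share only the area name R2, and nothing says that it pairs them.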

Other observations

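The 3 genes of the NaPi-II phosphate carrier family took different courses. Slc34a1 and Slc34a3 fell, as given above, while Slc34a2, best known from lung and gut, rose and was measured as part of the lung marker list. Slc34a2 stood at 170 (L4), 269 (R2), 219 (R3), 184 (R4) and 139 (R5) CPM in tumour areas, against 19.5 (L1), 15.8 (L2), 11.6 (R1) and 13.2 (R2) CPM in normal areas. For each 1000 reads of Slc34a1 there were 27.6 to 77.4 reads of Slc34a2 in tumour areas and 0.775 to 1.43 in normal areas. Like Havcr1, it was highest in R2, followed by R3, R4, L4 and R5. Slc34a1 nevertheless remained the most abundant of the family in every area.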
